A study of Homo sapiens with 4 samples.

Results

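The SLC25 family and the uncoupling proteins were followed in CP70sps cells exposed to the drug niclosamide. A member was any gene whose symbol in the array's probe annotation starts with SLC25A, or is UCP1, UCP2 or UCP3, which gave 48 genes and 72 probes of 18665 named genes and 48803 probes. CP70sps is a sphere culture of Cp70, an ovarian cancer cell line, selected for cells that exclude (pump out) the dye Hoechst, and the labels call it ovarian tumor-initiating cells. It was grown without serum in low-attachment plates with insulin, bFGF and EGF. All 4 groups are the same cells treated with 3 µM niclosamide, for 0, 2, 4 or 6 h, and each group is 1 array of total RNA on an Illumina bead array. The labels describe no vehicle-treated culture kept to a later time, so the 0 h array is the only untreated reference, and it is shared by all comparisons with 0 h. With 1 array per time, a difference has no replicate check, no error and no p-value, and time cannot be told apart from what else differed between the arrays.

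SLC25 proteins are carriers of the inner mitochondrial membrane that exchange nucleotides, phosphate, carboxylates, amino acids, cofactors and iron between the cytosol and the matrix. The ADP/ATP carriers export the ATP made by ATP synthase, and the uncoupling proteins let protons return to the matrix without making ATP. Niclosamide is itself known as a protonophore, a compound that carries protons across that membrane. The question put to the arrays was which of these carrier transcripts differed after 2, 4 and 6 h of the drug.

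A probe was counted as detected on an array when its detection p, set against the negative controls of that array, was under 0.01. Between 28.3% and 29.6% of all probes were detected on the 4 arrays. The label of the cells was checked against marker lists, where a gene with a probe detected on at least 1 array counted as detected. Of 8 tumour-initiating cell markers 1 was detected, ALDH1A1, while PROM1, CD44, KIT, ABCG2, SOX2, NANOG and POU5F1 were not. Of 9 epithelial and ovarian tumour markers 4 were detected, EPCAM, KRT8, KRT18 and KRT19, and PAX8, WT1, MUC16, MSLN and CDH1 were not. KRT8 was detected on only 1 array, EPCAM, KRT18 and KRT19 on all 4. Of 6 fibroblast markers 5 were detected, with COL1A1 the exception, against 1 of 6 leukocyte markers, CD68, and 0 of 5 endothelial markers. The summed intensity of the fibroblast list, over all its probes and before normalization, was 10490, 10840, 9770 and 8393 units over 0, 2, 4 and 6 h. After the normalization described below, its 5 detected genes lay between -0.28 and -0.02 on the log2 scale at 6 h against 0 h. They lay between -0.26 and 0.50 at 2 h against 0 h, and between -0.52 and 0.05 at 6 h against 2 h. COL1A2 was the highest in the former and the lowest in the latter. At 6 h against 0 h, KRT19 lay at -0.70, KRT18 at -0.12 and EPCAM at 0.30. Against 2 h, KRT19 lay at -0.60. The part of these markers' cells in the differences below was not tested.

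Of the 48 members, 31 had a probe detected on at least 1 array (64.6%, against 52.3% of all named genes), and each of these 31 had its brightest probe detected on all 4 arrays. The 17 others were UCP1, UCP3, SLC25A2, SLC25A18, SLC25A24, SLC25A27, SLC25A30, SLC25A31, SLC25A32, SLC25A33, SLC25A34, SLC25A41, SLC25A45, SLC25A47, SLC25A48, SLC25A52 and SLC25A53. Their 24 probes had intensities between 45.3 and 111.4 units, where the lowest detected probe of an array had between 107.5 and 121.2. At a looser threshold, a detection p under 0.05, 7 of the 17 were detected on at least 1 array. UCP1, the uncoupling protein of brown fat, had an intensity of at most 54.1, and UCP3, known from muscle, at most 94.8 on the brightest of its 3 probes, so their levels were not well above background. The ADP/ATP carrier gene SLC25A6 and the UCP-like SLC25A14 were not analysed here. UCP2 was thus the only uncoupling protein gene followed.

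Levels below are log2 values after background correction and quantile normalization, each gene read from its brightest probe. As a yardstick with no test, a difference of at least 1.5-fold (0.58 on the log2 scale) was counted. At 2 h, 2 of 31 members were at least 1.5-fold higher than at 0 h and 4 were at least 1.5-fold lower, against 7.86% and 7.98% of 9120 genes detected on both arrays. At 4 h, 0 were higher and 2 lower, against 4.25% and 4.57% of 9217 genes. At 6 h, 2 were higher (6.45%) and 4 lower (12.9%), against 9.46% and 9.79% of 9044 genes. These counts lie within 2 members of what the shares over all genes would give. In bulk RNA, fewer cells of a type and less RNA per cell cannot be told apart. With arrays scaled to a common median, and not quantile normalized, 4 members were higher and 4 lower at 2 h, against 10.7% and 6.04% of all genes. At 4 h this scaling gave 3 higher and 2 lower, against 10.3% and 2.14%, and at 6 h 4 higher and 3 lower, against 14% and 6.56%, so the larger counts of higher members went with larger shares over all genes.

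The median log2 difference of the 31 members from 0 h was -0.03, -0.02 and 0.10 over 2, 4 and 6 h, where that of all genes was -0.02, 0.01 and -0.02. Median scaling made the first 2 of these positive (0.07 and 0.14), so no direction of the family as a whole is given. At 2 h 15 members lay above 0 h and 16 below, at 4 h 13 and 18, and at 6 h 20 and 11. The shares above 0 h were thus 48.4%, 41.9% and 64.5% of members, where those of all genes were 47.5%, 51.0% and 48.4%. The robust spread of the members' differences was 0.396, 0.248 and 0.357 at 2, 4 and 6 h, where that of all genes was 0.386, 0.331 and 0.421. For 6 h minus 2 h it was 0.321 against 0.216.

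**Figure D1:**
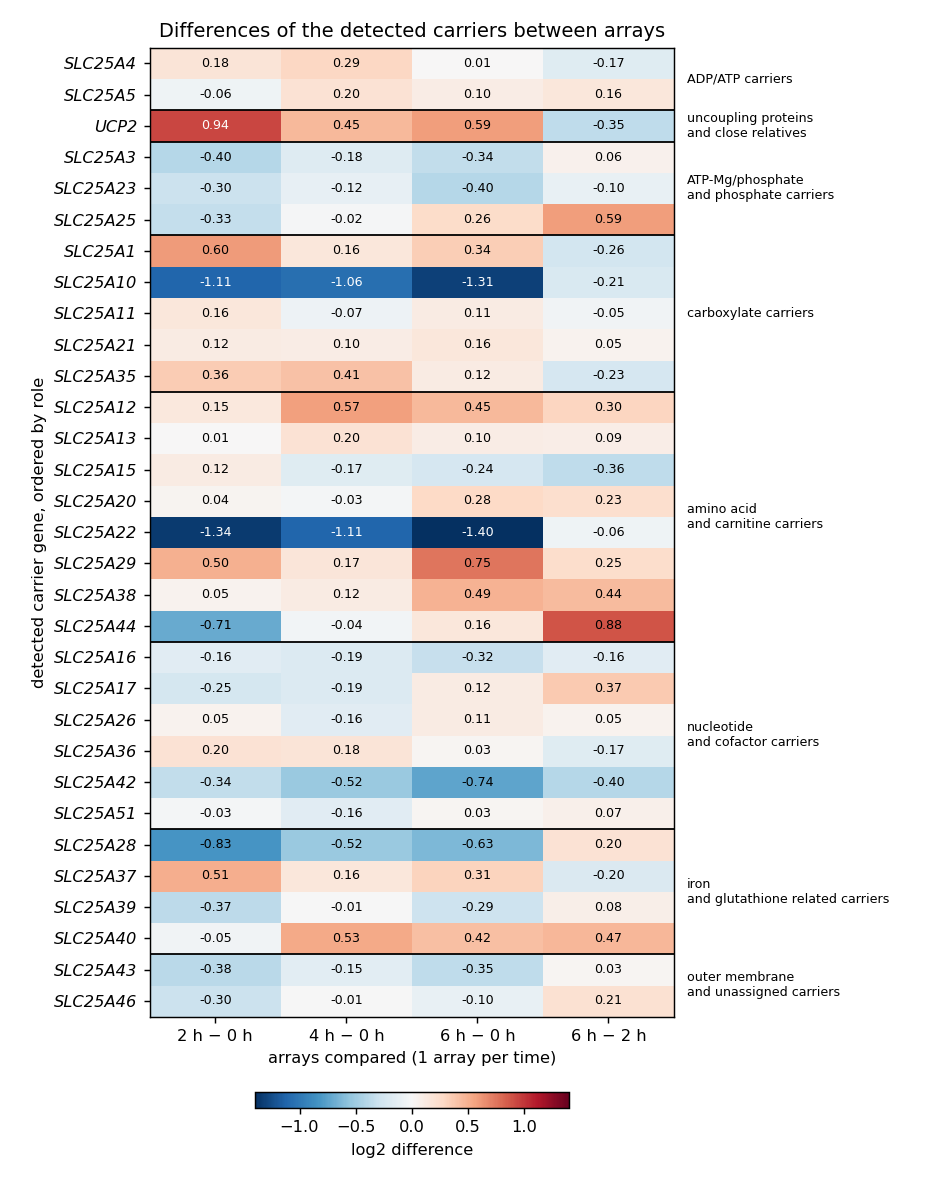
Log2 difference (colour and printed value) of each of the 31 detected carrier genes, on its brightest probe, for 2, 4 and 6 h against 0 h and for 6 h against 2 h, 1 array per time, with genes in rows ordered by the role named at the right. SLC25A10 and SLC25A22 are the darkest blue rows against 0 h, UCP2 is the reddest cell at 2 h minus 0 h, and SLC25A44 at 6 h minus 2 h.

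**Figure D2:**
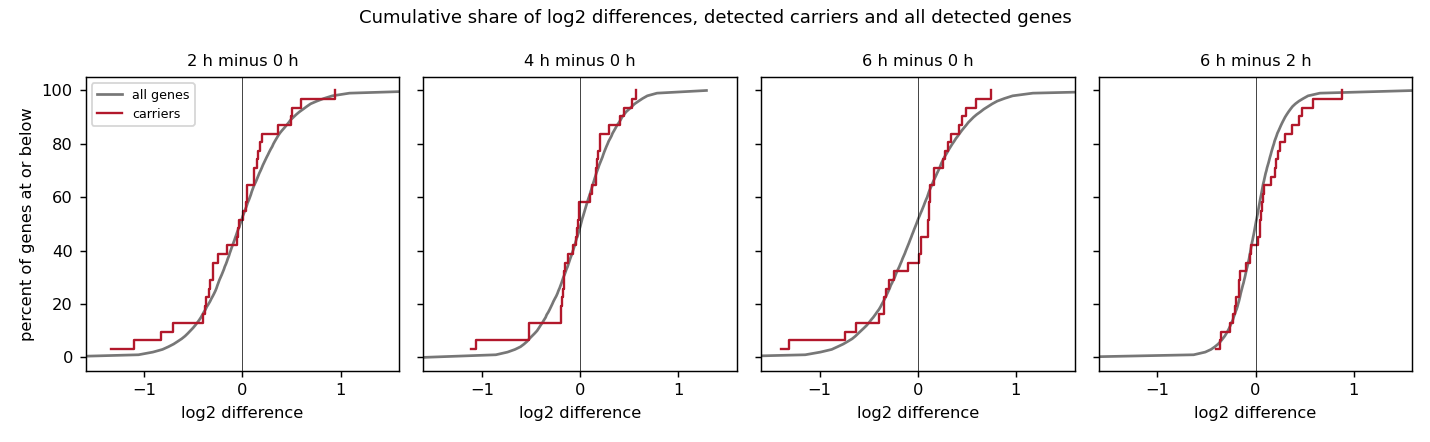
Percent of genes (vertical axis) at or below each log2 difference (horizontal axis) for the 31 detected carriers (red) and all genes detected on both arrays (grey), 1 panel per comparison. The widest vertical gaps are 12.6, 15.3 and 17.2 percentage points at 2, 4 and 6 h against 0 h and 14.0 at 6 h minus 2 h, each between -0.19 and 0.20 on the horizontal axis. The 2 lowest carriers in each comparison with 0 h are SLC25A10 and SLC25A22.

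Energy exchange was described first. SLC25A5, the ADP/ATP carrier gene of proliferating cells, read 13.62, 13.56, 13.82 and 13.72 at 0, 2, 4 and 6 h. SLC25A4, the form of heart and muscle, read 12.92, 13.10, 13.21 and 12.93 on its brightest probe, and 11.51, 11.91, 11.59 and 11.65 on a second. Both genes stayed within 1.5-fold of 0 h at every time, with the largest difference, 0.40, on the second SLC25A4 probe at 2 h. ADP/ATP carrier genes resemble each other and have processed pseudogene copies, and binding of related transcripts to these probes was not tested.

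UCP2, an uncoupling protein gene of wide expression, also linked to metabolite export, was higher on all 3 later arrays. It read 10.14 untreated, then 11.09, 10.60 and 10.74 over 2, 4 and 6 h. The 2 h array was the highest, at 1.92-fold over 0 h, followed by 6 h at 1.51-fold and 4 h at 1.37-fold. The 6 h value lies at the 1.5-fold line and fell short of it with the authors' processed table (0.57) and with a larger offset (0.58), and median scaling put the 4 h value past it (0.60). UCP2 has 1 probe on the array, so no second probe checks it.

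The phosphate carrier gene SLC25A3, which supplies phosphate for ATP synthesis and also carries copper, gave opposite readings on its 3 probes. Its brightest probe read 13.66, 13.26, 13.48 and 13.32 at 0, 2, 4 and 6 h, and the dimmest 7.36, 7.01, 6.73 and 6.94. The remaining probe, which the annotation assigns to another RefSeq transcript than the first pair, read 12.97, 13.59, 13.37 and 13.50. The first pair was lower than 0 h on all 3 later arrays, by -0.40, -0.18 and -0.34 on the brightest, while the other was higher by 0.62, 0.40 and 0.53. A single direction for SLC25A3 therefore cannot be given.

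Calcium-regulated ATP-Mg/phosphate carriers adjust the adenine nucleotide pool of the matrix. SLC25A25 read 10.24, 9.91, 10.22 and 10.50 on its brightest probe and 6.96, 7.33, 7.42 and 7.83 on a second probe of the same annotated transcript. The 6 h array was the highest on both probes, at 0.26 and 0.87 above 0 h and at 0.59 and 0.50 above 2 h. The probes disagreed in sign at 2 h, where they lay at -0.33 and 0.37. Its relative SLC25A23 read 12.23, 11.93, 12.11 and 11.83 and lay within 1.5-fold of 0 h throughout, lowest at 6 h.

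To show the DNA in front of carrier genes, the 250 bases before each annotated start were searched for 4 motifs on either strand. The RefSeq promoter table (GRCh38.p14) held 28 of the 31 detected members. The cAMP and ATF element TGACGTCA was in 2 of the 28 (7.14%), SLC25A25 and SLC25A36, against 2.03% of 27305 genes with any start holding it. The C/EBP-ATF composite TGATGNAA was in SLC25A11 alone (3.57% against 3.89%). The NRF-1 motif, named for a transcription factor of nuclear genes for mitochondria, was in SLC25A3 and SLC25A11 (7.14% against 6.2%). The E-box CACGTG was in 6 of 28 (21.4% against 7.73%), namely SLC25A13, SLC25A26, SLC25A36, SLC25A38, SLC25A46 and SLC25A51. No search letters contain those of another motif. The 28 are detected members, while the shares beside them cover every gene of the promoter table, detected on the arrays or not, so the 2 are not like for like. A match describes letters only, and the letters were not tied to any difference between arrays.

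The windows of SLC25A25, SLC25A36 and SLC25A3 are shown because they hold a match next to genes described here, in the 5′ to 3′ direction of the gene, with the match in capitals. They lie on the plus strand at chr9:128098257-128098506 (1 of 3 starts listed for that gene), chr3:140941586-140941835 and chr12:98593436-98593685 of GRCh38.p14.
SLC25A25: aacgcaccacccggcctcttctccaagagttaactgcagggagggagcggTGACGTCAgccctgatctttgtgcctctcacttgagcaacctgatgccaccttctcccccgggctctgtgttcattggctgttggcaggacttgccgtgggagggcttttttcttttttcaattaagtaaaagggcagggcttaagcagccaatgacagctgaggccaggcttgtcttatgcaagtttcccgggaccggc
SLC25A36: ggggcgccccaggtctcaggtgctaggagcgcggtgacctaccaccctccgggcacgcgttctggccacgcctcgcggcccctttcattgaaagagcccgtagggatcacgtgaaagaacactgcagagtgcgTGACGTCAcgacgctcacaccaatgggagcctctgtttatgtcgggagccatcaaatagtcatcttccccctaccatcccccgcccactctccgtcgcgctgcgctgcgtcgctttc
SLC25A3: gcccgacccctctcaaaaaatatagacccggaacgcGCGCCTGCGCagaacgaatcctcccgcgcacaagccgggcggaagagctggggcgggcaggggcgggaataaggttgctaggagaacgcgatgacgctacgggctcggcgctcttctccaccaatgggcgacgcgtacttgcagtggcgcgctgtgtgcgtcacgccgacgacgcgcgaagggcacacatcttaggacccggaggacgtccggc
The capitals mark only TGACGTCA in SLC25A25 and SLC25A36, beginning 200 and 117 bases before the start, and GCGCCTGCGC in SLC25A3, beginning 214 bases before it. The E-box match of SLC25A36 lies in the same window and is left in lower case. SLC25A36, which carries pyrimidine nucleotides, read 9.35, 9.55, 9.53 and 9.38 at 0, 2, 4 and 6 h, within 1.5-fold of 0 h throughout.

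Carboxylate carriers move citrate, malate, succinate and oxoglutarate. SLC25A10, the dicarboxylate carrier gene, whose protein exchanges malate and succinate for phosphate, was lower on every later array. It read 9.55 at 0 h and 8.44, 8.49 and 8.24 at 2, 4 and 6 h. These levels were 2.15, 2.09 and 2.48 times lower than at 0 h, and the 3 later arrays lay close together, below the first. SLC25A1, the citrate carrier gene, read 10.93, 11.53, 11.09 and 11.27, highest at 2 h (1.51-fold) and closer to 0 h afterwards. The oxoglutarate carrier gene SLC25A11 and the oxoadipate carrier gene SLC25A21 stayed between -0.07 and 0.16 of 0 h, and SLC25A35 between 0.12 and 0.41.

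Amino acid and carnitine carriers held the lowest difference of the family. SLC25A22, a mitochondrial glutamate carrier gene, read 10.50 at 0 h and 9.16, 9.39 and 9.09 at 2, 4 and 6 h. It was 2.53, 2.16 and 2.64 times lower, and, as for SLC25A10, the later arrays lay close together and all under 0 h. SLC25A10 and SLC25A22 were the 2 of 31 members at least 2-fold lower at each of 2, 4 and 6 h, where 1.29%, 0.423% and 1.95% of all genes were, and 0 members were at least 2-fold higher (1.35%, 0.217% and 1.77% of all genes). At 4 h the 2-fold line was missed by both with median scaling (-0.88 and -0.96), and by SLC25A10 with the authors' table (-0.98) and, narrowly, with an offset of 50. The 3 comparisons share the 0 h array, and each of these genes was detected by its only probe, so neither a second probe nor a second untreated array checks them. Between 2 h and 6 h they differed by -0.21 and -0.06.

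SLC25A44, a carrier gene for branched-chain amino acids, showed another course. It read 10.75 untreated, then 10.04, 10.71 and 10.92 over the later arrays. The 2 h array was the lowest, 1.64 times under 0 h, and the 6 h array lay 1.83-fold above 2 h, on 1 probe. That was the largest 6 h minus 2 h difference among the 31 detected members. SLC25A29, for basic amino acids, read 8.37, 8.87, 8.55 and 9.12 on its brightest probe, 1.68-fold higher at 6 h than at 0 h, but 7.87, 7.53, 7.85 and 7.80 on a second probe of another annotated transcript, where 6 h minus 0 h was -0.07.

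Differences under 1.5-fold made up the rest of that group. SLC25A12, a calcium-regulated aspartate/glutamate carrier gene, read 7.97, 8.12, 8.54 and 8.43, and its relative SLC25A13 stayed between 0.01 and 0.20 of 0 h. SLC25A38, the glycine carrier gene needed for haem synthesis, read 8.62, 8.67, 8.74 and 9.12, with the highest value at 6 h. The ornithine carrier gene SLC25A15 lay at -0.24 and -0.28 at 6 h on its 2 probes, which differed by only 0.04. SLC25A20, the carnitine/acylcarnitine carrier gene of fatty acid oxidation, lay at 0.28 at 6 h on the probe detected throughout.

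Among carriers of nucleotides and cofactors, SLC25A42, for coenzyme A, had the widest disagreement between probes. Its brightest probe read 11.51, 11.17, 10.99 and 10.77 at 0, 2, 4 and 6 h, 1.67 times lower at 6 h. A second probe of the same annotated transcript read 7.43, 8.30, 7.65 and 8.05, 1.53-fold higher at 6 h. The gene thus has no settled direction, and the mean of both probes at 6 h was -0.07. SLC25A26, which carries S-adenosylmethionine, read 8.34, 8.39, 8.19 and 8.45 on its brightest probe, and its 3 probes lay at 0.11, -0.09 and -0.49 at 6 h. The probe with the lowest difference read 7.29, 7.11, 7.17 and 6.80, lowest on the 6 h array. The NAD carrier gene SLC25A51, the peroxisomal SLC25A17 and SLC25A16 stayed within -0.32 and 0.12 of 0 h on their brightest probes.

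Mitochondrial iron import and glutathione carriers differed among themselves. SLC25A28, the mitoferrin gene of wide expression, read 10.71, 9.88, 10.19 and 10.08, lower on all 3 later arrays and 1.78, 1.44 and 1.55 times under 0 h. With median scaling its 6 h difference, -0.55, was short of the 1.5-fold line. SLC25A37, the mitoferrin gene of red cell precursors, read 9.21, 9.72, 9.36 and 9.51 and was higher than 0 h on the same arrays, by at most 0.51. Both have 1 probe detected.

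SLC25A39 and SLC25A40 are related genes for glutathione import into mitochondria. SLC25A40 read 7.49, 7.44, 8.02 and 7.91 on its brightest probe and 6.40, 6.59, 6.82 and 6.90 on a second. Its 4 h and 6 h arrays lay above the first 2 on both probes, by 0.42 and 0.50 at 6 h against 0 h. SLC25A39 read 12.97, 12.60, 12.96 and 12.68 and did not share that course. SLC25A46, a protein of the outer membrane, stayed between -0.30 and -0.01 of 0 h, and SLC25A43 lay at -0.38, -0.15 and -0.35 on its brightest probe and at -0.94, -0.39 and -0.57 on its other.

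**Figure D3:**
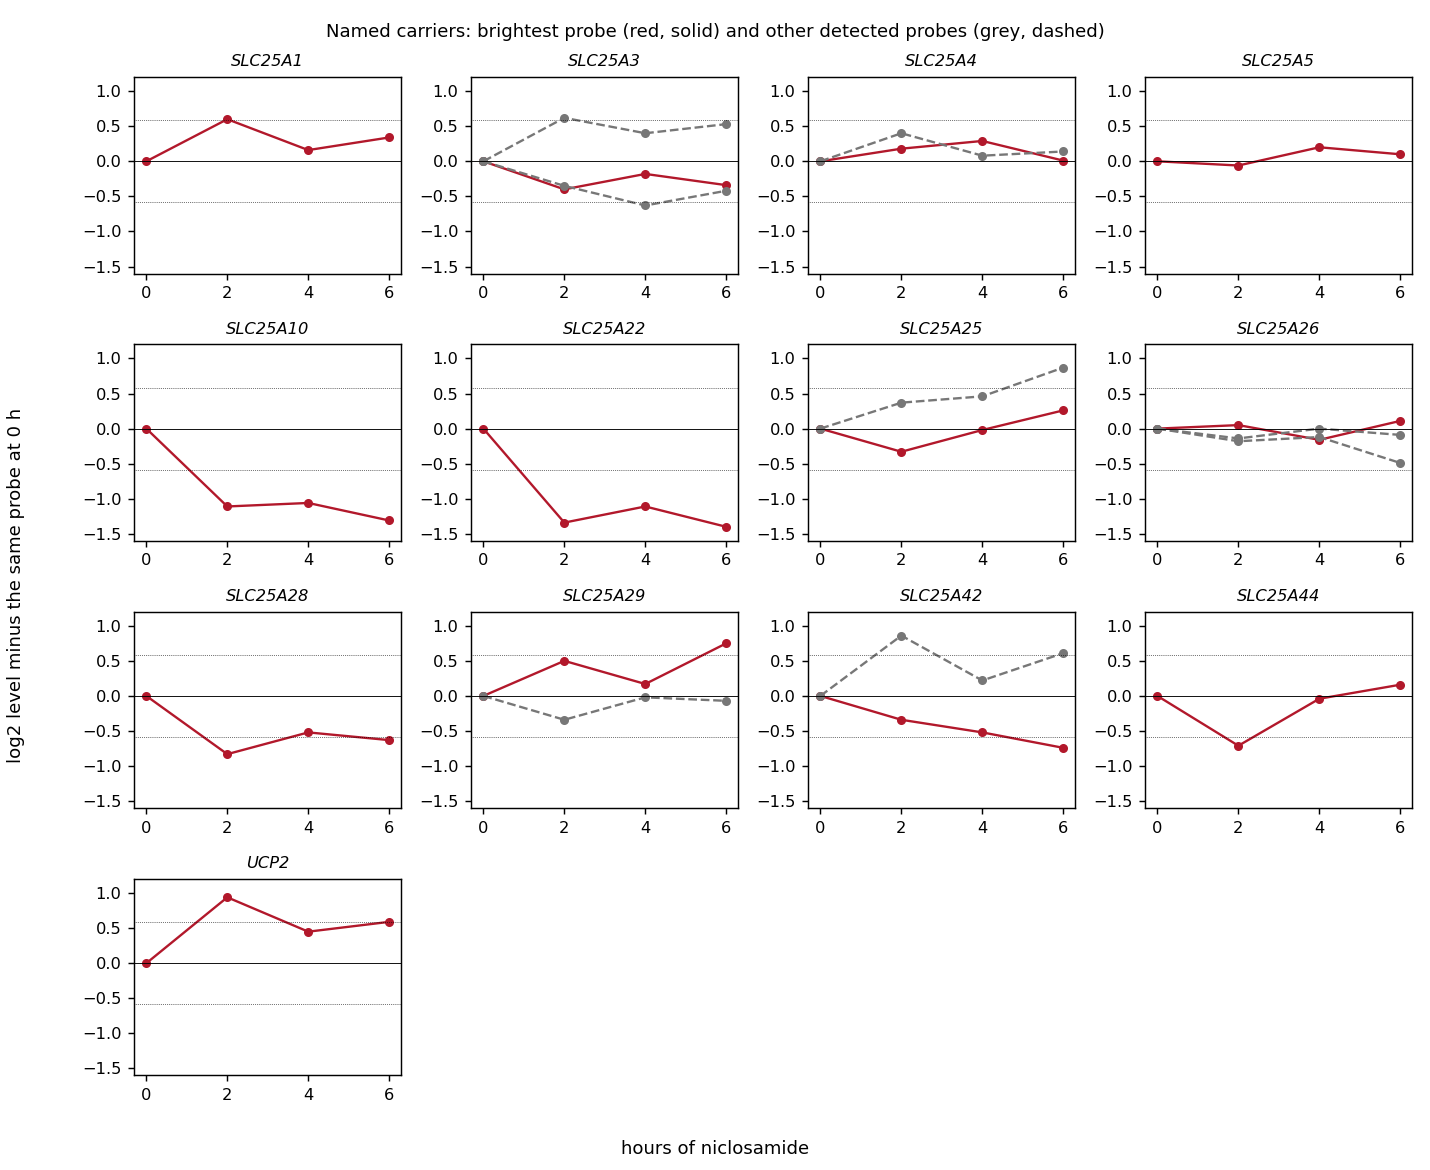
Log2 level of each named carrier minus its own 0 h value (vertical axis) against hours of niclosamide (horizontal axis), with a line for each probe detected on all 4 arrays and dotted lines at 1.5-fold. The lines of SLC25A10 and SLC25A22 lie near one low level from 2 h on, UCP2 is highest at 2 h, and the probes of SLC25A3 and SLC25A42 run on opposite sides of 0.

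Several probes of a gene read the same RNA on the same arrays, so they check single probes and are not replicates. In 10 members with several probes detected on both arrays, the probes had opposite signs in 7 at 2 h, 4 at 4 h and 5 at 6 h, against 50.2%, 39.3% and 41.9% of all such genes. For 6 h minus 2 h this was 3 of 10, against 32.7%. The median distance between the probes of a member was 0.48 at 6 h minus 0 h, where that of all such genes was 0.32, and 0.15 at 6 h minus 2 h, where it was 0.14. At 2 h and 4 h against 0 h it was 0.40 and 0.20, where that of all such genes was 0.33 and 0.24. In 0 of the 10 was every probe at least 1.5-fold higher or lower in any of the 4 comparisons. Over all genes with several probes this held for 2.13% upward and 0.388% downward at 2 h, 0.52% and 0.568% at 4 h, 2.06% and 1.23% at 6 h, and 0.574% and 0.526% for 6 h minus 2 h.

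**Figure D4:**
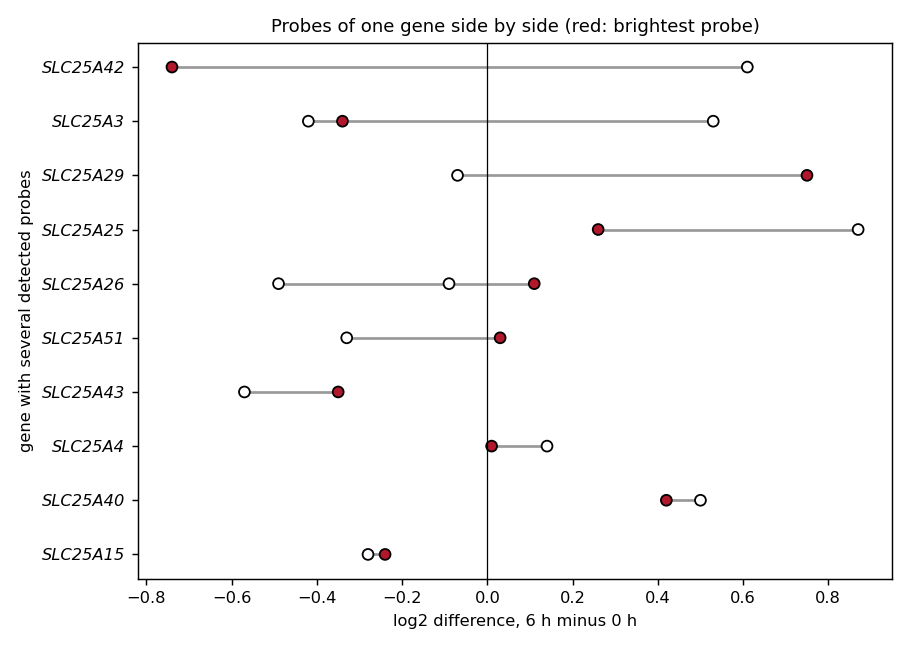
Log2 difference for 6 h minus 0 h (horizontal axis) of each detected probe of the 10 carrier genes with several, with the brightest probe in red and a grey line joining the probes of a gene. Probes of SLC25A15, SLC25A40 and SLC25A4 lie close together, while those of SLC25A42, SLC25A3 and SLC25A29 lie on both sides of 0.

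The 6 h array was also set against 2 h, a comparison that does not subtract the 0 h array and in which differences were smaller over all genes. The 0 h array still entered the normalization and the choice of the brightest probe. There 2 of 31 members were at least 1.5-fold higher and 0 lower, against 1.53% and 1.34% of 9202 genes, with a median of 0.05 where that of all genes was 0.00. Median scaling gave the same counts, 2 and 0, against 1.8% and 1.05% of all genes. The 2 were SLC25A44 (0.88) and SLC25A25 (0.59), the latter at the line itself. They were followed by SLC25A40 at 0.47 on its brightest probe and 0.31 on the second, SLC25A38 at 0.44 and SLC25A17 at 0.37. The lowest were SLC25A42 at -0.40, with -0.25 on its second probe, SLC25A15 at -0.36, with -0.48 on its second, and UCP2 at -0.35. SLC25A42 and SLC25A15 thus had probes of 1 sign here.

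Other mitochondrial transport genes, a list of 31 with 29 on the array, were read beside the family. Of 22 detected on both arrays at 6 h, 1 was at least 1.5-fold higher than at 0 h and 0 were lower, against 9.46% and 9.79% of all genes. The median of the 22 was -0.13, where that of all genes was -0.02. The 1 past the line was VDAC1, the main pore of the outer membrane, which read 13.16, 13.99, 13.65 and 13.82. Like UCP2, it was highest at 2 h. The next in size at 6 h was MTCH2, an outer membrane relative of the carriers, at -0.58, just short of the 1.5-fold line. VDAC3 at -0.46, CCDC51 at -0.39, the calcium uniporter gene MCU at 0.38 and TSPO at -0.38 came after it. At 2 h 1 of 22 was higher and 0 lower, against 7.86% and 7.98% of all genes. At 4 h 0 of 23 were either, against 4.25% and 4.57%.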

How the data were processed

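Total RNA of CP70sps cells was measured on 4 arrays, grouped by the time label. The non-normalized file holds a deposited intensity for each probe, exported from BeadStudio according to the submitters' processing notes (settings not given in the sources used here), and a detection p-value, per the file headers. The authors' processed intensity table matched a linear quantile normalization of these within 1.46% and served as an alternative. Deposited intensities were corrected by normexp with inferred negative controls and an offset of 16, converted to log2 and quantile normalized (limma 3.58.1, R 4.3.3). These steps were run on simulated arrays, copies of the 0 h array with added noise and few changed probes. That setting does not test the normalization where many genes differ, as between these arrays. A single symbol names 27578 probes, updated through Entrez identifiers, which changed no membership; 13 probes carry several symbols and 21212 were left unnamed. A gene was read from its brightest detected probe, on the mean of log2 values.

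Values on every array are given for members at least 1.5-fold different in any comparison, for members whose probes had opposite signs and lay over 0.58 apart at 6 h, and for SLC25A3, SLC25A4, SLC25A5 and UCP2; other members with such values were chosen after these were seen. Members, lists and motifs were chosen with earlier results of these data known. The number of arrays limits the precision, and the files give no slide or scan date. Alternatives were median scaling, the authors' table, an offset of 50, a detection p under 0.05 and the mean over detected probes.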

Additional observations from a re-analysis of the deposited data

How the results depend on the processing

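The counts at 1.5-fold and the medians were recomputed under 5 alternatives, over the same 31 members except with the looser detection p. No named member changed sign in a comparison where it was past the line. Below the line signs did change, among others for SLC25A42 at 2 h (0.26 in place of -0.34 as the mean over probes), SLC25A25 at 2 h (0.02 in place of -0.33) and 4 h (0.22 in place of -0.02) in the same way, and SLC25A44 at 4 h with median scaling (0.07 in place of -0.04). Median scaling raised the median of all genes at 4 h to 0.15 and gave 4 members higher at 2 h, 3 at 4 h and 4 at 6 h, with member medians of 0.14 at 4 h and 0.21 at 6 h. For 6 h minus 0 h, 1 member was higher, in place of 2, with the authors' table, with an offset of 50 and with the mean over probes. The shares of all genes were then 7.92%, 8.14% and 8.61%, in place of 9.46%. For 6 h minus 2 h, the same 3 alternatives also gave 1 in place of 2, since SLC25A25 read 0.57, 0.58 and 0.55. There 1.01%, 1.07% and 1.49% of all genes were higher, in place of 1.53%. SLC25A29 read 0.60 at 2 h under median scaling and 0.34 at 6 h as the mean of its probes. A detection p under 0.05 moved none of these counts by over 1.5 times. It covered 34 members at 2 h and 4 h against 0 h, and 35 at 6 h against 0 h and against 2 h. The added members were detected only at that looser threshold. With them, the member median at 6 h against 0 h was 0.03 in place of 0.10. The mean over probes turned the member medians at 2 h, from -0.03 to 0.04, and for 6 h minus 2 h, from 0.05 to -0.03. SLC25A10 and SLC25A22 kept their side of the 1.5-fold line in every comparison with 0 h under median scaling, the authors' table and an offset of 50. The other alternatives, the looser detection p and the mean over probes, could not change a member with a single probe, as these have. At 4 h 2-fold was missed by both with median scaling and by SLC25A10 with the authors' table and an offset of 50. No paired analysis was possible because each time has 1 array. Low signal limits the 17 undetected members, for which no single difference is given. Some of them entered the counts and medians at the looser detection p.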
